A study of Mus musculus with 17 samples.

Results

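The loci of 4 core pluripotency genes, Pou5f1, Nanog, Sox2 and Klf4, were taken as the gene interval with 20 kb on each side, by position in mouse build mm9, because the deposited files name no genes. The 4 loci held 20 of the 39732 deposited intervals. By kind they held 19 of 14510 Sirt6 peaks, 1 of 21442 acetylation peaks and 0 of 3780 windows of 5-hydroxymethylcytosine. The windows are those the authors listed for a difference between genotypes, so their absence does not mean absence of 5-hydroxymethylcytosine. The cells were mouse embryonic stem cells of the 129 strain that were wild type for Sirt6 (WT) or a Sirt6 knockout (KO), grown with leukemia inhibiting factor on irradiated embryonic fibroblasts that were removed by plating. Chromatin immunoprecipitation with sequencing (ChIP-seq) covered Sirt6 in untreated WT cells (1 library) and untreated KO cells (2 libraries that differ in antibody amount), whole-cell extract of both genotypes as control (1 library each), and the histone marks H3K9ac and H3K56ac in untreated WT, untreated KO, WT with retinoic acid and KO with retinoic acid (1 library each). Retinoic acid (RA), from a 0.01 M stock at a dilution of 10000, was given for 2 days in medium without leukemia inhibiting factor. CMS-IP, which pulls down bisulfite-treated DNA that carried 5-hydroxymethylcytosine, was run on untreated KO and WT cells with an input library for each (4 libraries). No source used here says how many cell clones stand behind each genotype, and peak lists carry no expression by which the cell type could be checked. With 1 library in each group, the values come without a spread between replicates, and conditions were set side by side without a test. All 95% intervals cover counting error only.

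Pou5f1 encodes Oct4, a POU-domain transcription factor, Sox2 encodes a factor with an HMG box, Nanog encodes a homeodomain factor, and Klf4 encodes a zinc-finger factor of the Krüppel-like family. Oct4 and Sox2 bind DNA side by side at many enhancers of embryonic stem cells. In these cells the factors help maintain their own and each other's genes. Retinoic acid can induce differentiation, and whether each of the genes was then switched off cannot be read from peak lists. Sirt6 is a NAD-dependent deacetylase that removes acetyl groups from H3K9 and H3K56, marks that are usually found at active promoters and enhancers. The comparison at these loci asked where Sirt6 lay in WT cells. It also asked whether acetylation peaks were listed there in KO cells, in WT cells or in both. For 5-hydroxymethylcytosine it asked whether windows listed for a difference between KO and WT lay there.

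The genes lay at chr17:35642900-35647800 (Pou5f1, plus strand), chr6:122657500-122664700 (Nanog, plus strand), chr3:34548900-34551400 (Sox2, plus strand) and chr4:55540000-55545400 (Klf4, minus strand), all in mm9. These positions are rounded to 100 bp. In the gene order of RefSeq's GRCm38.p6 annotation, the next protein-coding genes downstream were Tcf19 and Cchcr1 at Pou5f1 and Slc2a3, a glucose transporter gene, at Nanog. An interval in the flanks of Pou5f1 or Nanog may lie at a neighbouring gene.

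The promoters are shown because the Sirt6 peaks described next lie beside or partly over them. Each line gives the 250 bases upstream of the RefSeq start, 5′ to 3′ on the gene's own strand, from build GRCm38.p6: chr17:35505782-35506031 for Pou5f1, chr6:122707239-122707488 for Nanog, chr3:34649745-34649994 for Sox2 and chr4:55532476-55532725 for Klf4 (minus strand). Capitals mark 4 short motifs found on either strand: GGGCGG (the GC box), ATGCAAA (an octamer core of the kind Oct4 binds), CATTGT (a core of the kind Sox factors bind) and AGGTCA (a half-site of nuclear receptors, the retinoic acid receptors among them).
Pou5f1: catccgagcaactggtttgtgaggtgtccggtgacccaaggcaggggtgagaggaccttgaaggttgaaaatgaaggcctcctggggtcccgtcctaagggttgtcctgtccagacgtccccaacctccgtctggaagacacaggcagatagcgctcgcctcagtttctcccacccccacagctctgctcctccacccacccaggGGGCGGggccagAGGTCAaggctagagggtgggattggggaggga
Nanog: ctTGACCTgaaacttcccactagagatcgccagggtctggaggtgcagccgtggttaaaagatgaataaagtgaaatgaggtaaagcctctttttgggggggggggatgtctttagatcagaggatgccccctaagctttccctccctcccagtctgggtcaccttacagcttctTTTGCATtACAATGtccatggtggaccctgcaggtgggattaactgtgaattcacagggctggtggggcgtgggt
Sox2: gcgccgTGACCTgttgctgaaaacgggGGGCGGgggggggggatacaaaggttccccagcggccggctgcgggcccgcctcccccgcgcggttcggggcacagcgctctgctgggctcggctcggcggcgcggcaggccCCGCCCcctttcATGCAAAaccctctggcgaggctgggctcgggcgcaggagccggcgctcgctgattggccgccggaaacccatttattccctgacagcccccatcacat
Klf4: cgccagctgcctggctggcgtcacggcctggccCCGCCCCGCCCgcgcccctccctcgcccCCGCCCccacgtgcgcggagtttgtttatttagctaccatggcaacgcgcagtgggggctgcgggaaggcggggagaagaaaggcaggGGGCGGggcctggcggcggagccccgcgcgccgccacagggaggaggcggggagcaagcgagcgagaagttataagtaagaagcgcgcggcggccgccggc

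The Nanog promoter held an octamer core at positions -75 to -69 and a Sox core at -67 to -62, counted from the RefSeq start, with 1 base between them. It also held a nuclear receptor half-site, at -248 to -243. The Sox2 promoter held an octamer core at -99 to -93, GC boxes at -223 to -218 and -111 to -106, and a half-site at -244 to -239. The Pou5f1 promoter held a GC box at -45 to -40 and a nuclear receptor half-site at -33 to -28. The Klf4 promoter held 4 GC boxes, of which those at -217 to -212 and -212 to -207 share a base, and no match to the other 3 motifs. Over 32851 RefSeq promoters of the same length, GGGCGG was found in 32.7%, ATGCAAA in 4.12%, CATTGT in 10.7% and AGGTCA in 14.0%. Base composition split the genes: G and C made up 74.0% of the Klf4 and 72.0% of the Sox2 window, with 32 and 27 CG dinucleotides, against 62.0% and 8 for Pou5f1 and 52.0% and 3 for Nanog. The median promoter had 52.4% and 6, so Nanog lay near it and Klf4 and Sox2 far above. A match is a description of these letters and not a binding site. RefSeq lists 2 starts each for Pou5f1 and Nanog, and their windows, motif positions and base composition follow only 1 of them.

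Sirt6 was listed at all 4 genes in WT cells. There were 4 peaks at Pou5f1, 3 at Nanog, 7 at Sox2 and 5 at Klf4, and 11 of the 19 overlapped the gene interval itself. The peaks were clustered at the genes: 18 of the 19 lay within 10 kb of a gene, and the farthest lay 12019 bp downstream of Sox2. Both Sirt6 libraries of KO cells had an empty list, here as elsewhere, with 40006795 and 48956556 tags against 2008232 in the WT library. Their control held 5113859 tags, fewer than either KO library. The WT control held 6251712, more than the WT library, so the calls were not made alike. As a background, 14.3% of 58594 tiles of 45 kb along the autosomes and chromosome X held 1 or more WT Sirt6 peaks, and 2.51% held 3 or more. The loci are centred on genes and the tiles are not, and the tiles include stretches without genes. These shares thus describe the whole genome and not other promoters. Among the 8364 tiles with any WT Sirt6 peak, 17.6% held 3 or more. As many peaks as at Pou5f1 were found in 1.00% of all tiles, as at Klf4 in 0.439% and as at Sox2 in 0.0734% (43 tiles). These shares count calls and not separate sites. Some neighbouring calls were closer than the fragment length of 220 bp, for example 41 bp apart at Klf4 and 56 bp at Sox2. The order of the genes did not hold at a −log10 q of 10 or more, where Nanog kept 2 peaks and Pou5f1, Sox2 and Klf4 kept 1 each.

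**Figure D1:**
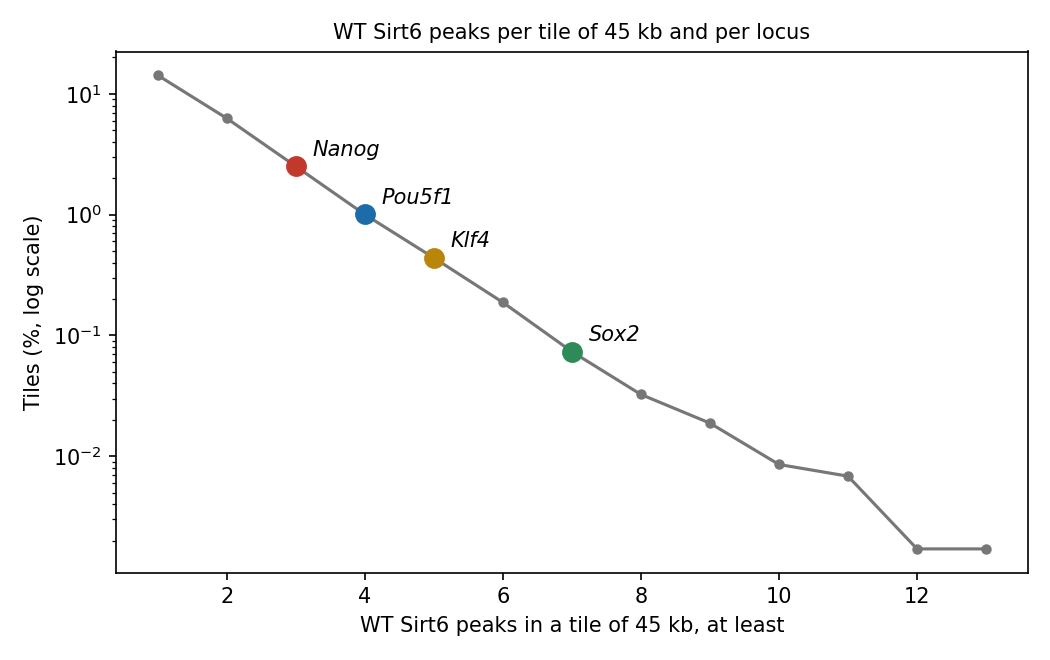
Share of 58594 tiles of 45 kb (y axis, percent, log scale) that held at least a given number of WT Sirt6 peaks (x axis); grey points are tiles and coloured points mark the number of peaks at each gene. Nanog, with 3 peaks, lies at 2.51% of tiles and Sox2, with 7, at 0.0734%.

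Each gene carried 1 broad Sirt6 peak that began 137 to 692 bp inside it and lay beside shorter ones. At Pou5f1 it lay at chr17:35643037-35644348 (1312 bp), with its summit 1045 bp downstream of the 5′ end of the gene, 20 fragments at the summit (exact Poisson interval 12.2 to 30.9) and a fold enrichment of 10.7, the authors' own value over the local background. At Klf4 it lay at chr4:55543874-55545196 (1323 bp), with its summit 478 bp downstream of the 5′ end, 16 fragments (9.15 to 26.0) and a fold of 13.7. At Sox2 it lay at chr3:34549403-34550592 (1190 bp), with its summit at 719 bp, 15 fragments (8.40 to 24.7) and a fold of 12.8.

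At Nanog it lay at chr6:122658192-122659317 (1126 bp), with its summit at 1165 bp, 15 fragments (8.40 to 24.7) and a fold of 12.1. The 4 broad peaks thus had their summits 478 to 1165 bp inside the genes, and their counting intervals overlapped, so their order by height is not resolved at this depth. In length they were far out in the list. Of all WT Sirt6 peaks, whose median length was 384 bp, 287 (1.98%) were as long as the Nanog peak or longer, and 0.751% were as long as the Klf4 peak. In fold they stood less apart: 8.96% of the list reached the fold of the Klf4 peak, 12.7% that of Sox2, 16.4% that of Nanog and 22.7% that of Pou5f1.

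**Figure D2:**
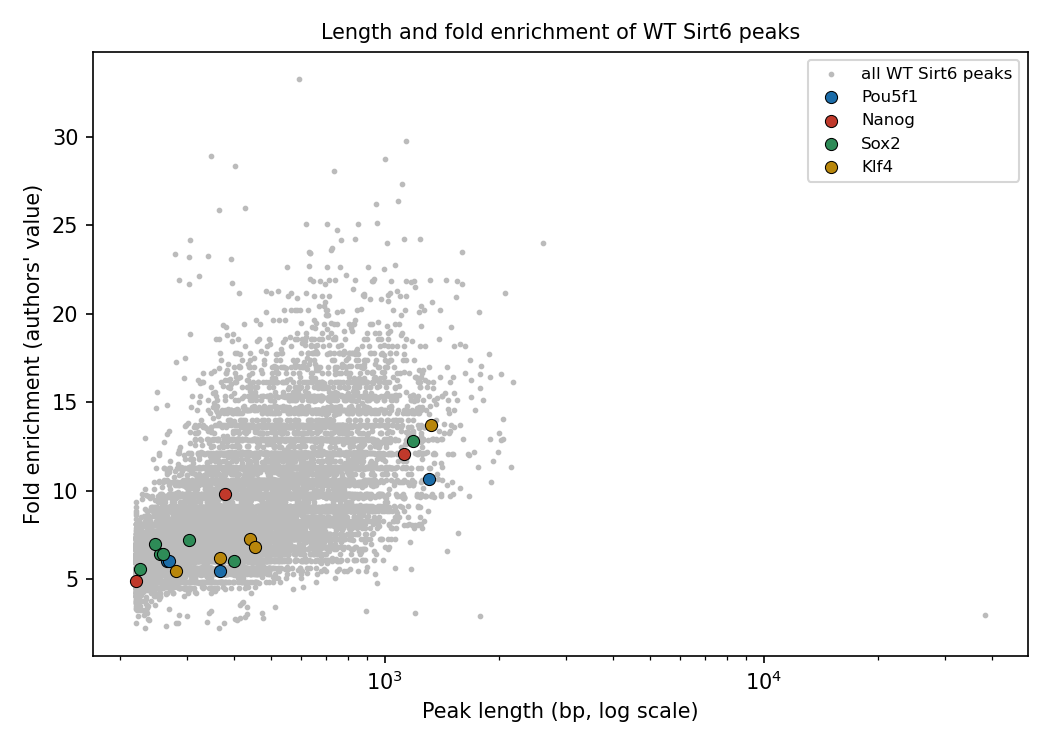
Fold enrichment (y axis, the authors' value) against length (x axis, bp, log scale) of all 14510 WT Sirt6 peaks (grey) and the 19 at the 4 genes (coloured by gene). At each gene 1 peak of 1126 to 1323 bp stands apart, and the other 15 are 220 to 456 bp long.

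The broad peak of Pou5f1 had the most fragments of the 4 and the lowest fold. The deposited fold equals the summit pileup plus 1 over the local background plus 1, which gives back the background that was used: the lowest value implied over the list, 0.237 fragments, was 1.003 times the mean pileup expected from the tags and fragment length in the header. At Pou5f1 the implied background was 0.964 fragments, 4.08 times that mean, and 4.17% of WT Sirt6 peaks had a ratio as high. It was 1.36 times the mean at Nanog, 1.05 at Sox2 and 1.003 at Klf4. The last Pou5f1 peak, at chr17:35645041-35645408, had a ratio of 2.72. The control held 6251712 tags, so a background of 0.964 at 1 place rests on few control fragments. No counting interval was given for it, and how far Pou5f1 differs here from the other 3 genes is not resolved. MACS2 takes this background from the control, here the WT whole-cell extract, wherever it exceeds the genome mean, so the same pileup gives a lower fold at Pou5f1 than at the other 3 genes.

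**Figure D3:**
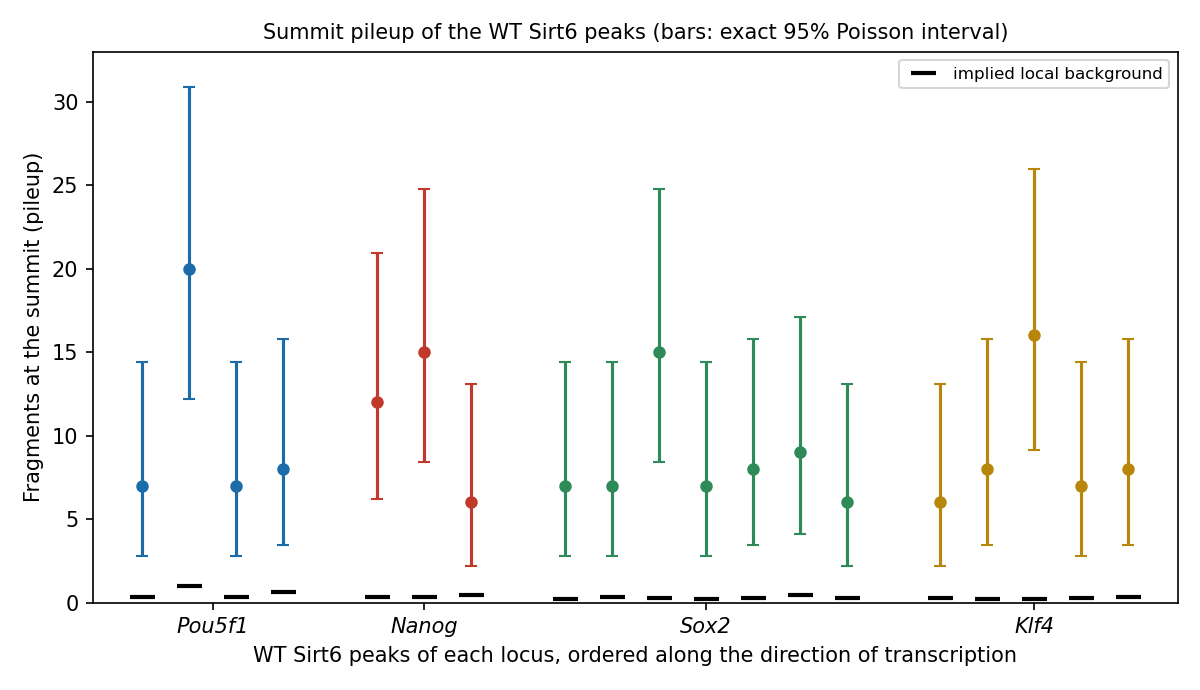
Fragments at the summit (y axis) of the 19 WT Sirt6 peaks, ordered by gene along the direction of transcription (x axis); points are the deposited pileup, bars the exact 95% Poisson interval and black dashes the implied local background. The tallest point of each gene is its broad peak, at 15 to 20 fragments, and the highest dash, 0.964, is that of the Pou5f1 peak.

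The other 15 peaks were small. They held 6 to 12 fragments at the summit, with folds of 4.91 to 9.84, against 10.0 fragments and 8.08 for the median peak of the list. Only 5 of the 19 peaks exceeded the median fold: the 4 broad ones and the first Nanog peak, at chr6:122657765-122658144 (12 fragments, 6.20 to 21.0; fold 9.84). The same 5 were left at a −log10 q of 10 or more, a limit that 44.4% of the whole list passed, so each gene then kept a peak and Nanog kept 2.

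At Pou5f1 a peak of 266 bp lay upstream at chr17:35642541-35642806 (7 fragments, fold 6.05), and peaks of 270 and 368 bp followed the broad one at intervals of 98 and 324 bp. At Nanog the first and the broad peak were 47 bp apart, the third, of 220 bp, came 494 bp later, and 0 peaks lay upstream within 20 kb. At Sox2, 2 peaks lay upstream, at chr3:34547741-34547996 and chr3:34548205-34548604 (folds 6.47 and 6.05), and 3 lay beyond the 3′ end, at 808, 1205 and 12019 bp (folds 7.21, 7.02 and 5.58). At Klf4, 2 peaks lay upstream, at chr4:55545660-55546101 and chr4:55546695-55546975 (folds 7.28 and 5.45), and 2 followed the broad peak at 55 and 41 bp. Peaks covered 58.0% of the Sox2 interval, 39.8% of Pou5f1, 39.7% of Klf4 and 24.0% of Nanog.

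No peak covered the 5′ end, as placed here, at any of the 4 genes. The placing is approximate, so the distances below are too. At Pou5f1 the interval used was 4900 bp long, against 4746 bp for the RefSeq gene. The uncovered stretch ran from 94 bp upstream to 137 bp downstream at Pou5f1, from 260 bp upstream to 204 bp downstream at Klf4 and from 296 bp upstream to 503 bp downstream at Sox2, and at Nanog the first peak began 265 bp downstream. Of the promoter bases printed above, those of Nanog lay ahead of the first peak, while the upstream peak of Pou5f1, from positions -359 to -94 of the 5′ end as placed here, reached over the more distal part of its 250 bp. The upstream peaks of Klf4 and Sox2 ended 260 and 296 bp before the 5′ end, so with gene positions rounded to 100 bp it is not resolved whether they reach into that window. Peaks here are calls from 1 library of 2008232 tags, and the reads between them were not used here.

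**Figure D4:**
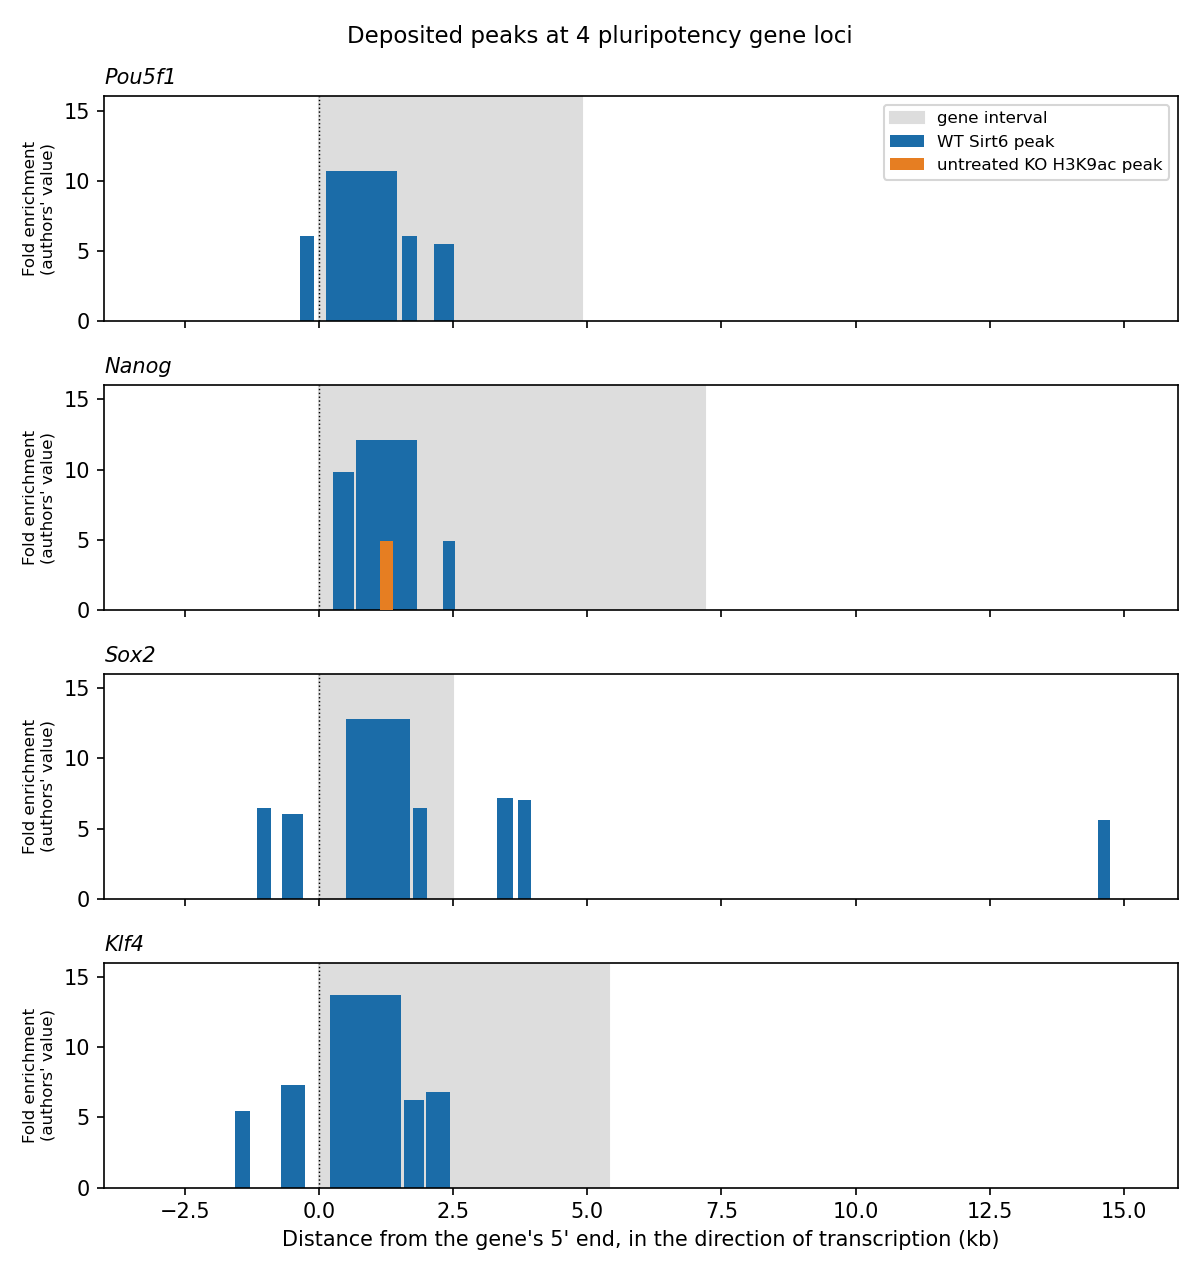
Deposited peaks at the 4 genes by distance from the 5′ end of the gene (x axis, kb, in the direction of transcription) with their fold enrichment (y axis, the authors' value); blue bars are WT Sirt6 peaks, the orange bar is the untreated KO H3K9ac peak and grey marks the gene interval. Each gene has 1 broad blue bar in its first 2 kb, and the orange bar lies inside that of Nanog.

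Acetylation peaks were nearly absent from these loci in all 8 lists. The untreated KO H3K9ac list had 1 peak, at Nanog, and the other 7 lists had 0 peaks in the 4 loci. Over the genome the share of 45 kb tiles with 1 or more peaks was 5.54% for untreated KO H3K9ac and 4.2% for untreated WT H3K9ac. After RA it was 3.99% in WT and 4.75% in KO for H3K9ac. For H3K56ac it was 4.22% in untreated WT, 3.46% in untreated KO, 3.16% in WT after RA and 3.45% in KO after RA. With shares this low, 0 of 4 loci is near the background, and the lists held only 2063 to 3593 peaks each. A locus without a peak has no value in a list, so its acetylation level is not known from these files.

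The KO H3K9ac peak lay at chr6:122658641-122658885 (245 bp), inside Nanog, with its summit 1285 bp downstream of the 5′ end. It fell wholly within the broad Sirt6 peak of WT cells, and the 2 summits were 120 bp apart. It had 21 fragments at the summit (13.0 to 32.1), more than the 18.0 of the median peak in that list. Its fold of 4.90 was low, since only 7.29% of the 3593 peaks had a fold as low or lower, and its −log10 q was 6.85. The implied local background was 3.49 fragments, 4.26 times the genome mean, and 5.59% of the list had a ratio as high.

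For the acetylation lists that background was taken from the same library over 10000 bp, per the file headers, as no control was used. A broad stretch of reads around a summit thus raises the background against which the summit is called, and here the reads around the Nanog peak, its own included, were 4.26 times as dense as the genome mean of the KO library. The 1347 KO H3K9ac peaks that overlapped a WT Sirt6 peak had a median fold of 5.74 and a median background ratio of 2.39. The 2246 that overlapped none had medians of 10.4 and 1.14, and a ratio of 2 or more was found in 69.0% and 16.4% of the 2 sets. The ratio at Nanog thus lay above the median of both sets.

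No peak was called at that place in untreated WT cells, whose library had 7719553 tags against 7217855 in KO, nor in KO cells after RA, whose library was deeper (10250030 tags). The fragment length used was 212 bp in untreated KO and 155 bp in untreated WT, per the file headers, and longer fragments add to the pileup; its part in the call was not tested. The H3K9ac peak was lost at a −log10 q of 10 or more. Broad Sirt6 peaks were taken as those of 1126 bp or more, the length of the Nanog peak. The 287 in the list therefore include the 4 at these genes. An untreated KO H3K9ac peak overlapped 61 of the 287, or 21.3%, and 1 of the 4 at these genes. The corresponding numbers were 3 of 287 (1.05%) for untreated WT H3K9ac, and after RA 6 (2.09%) in WT and 14 (4.88%) in KO. For H3K56ac they were 20 (6.97%) in untreated WT, 25 (8.71%) in untreated KO, 13 (4.53%) in WT after RA and 12 (4.18%) in KO after RA. Over all 14510 WT Sirt6 peaks of any length, the share overlapped was 9.30% for untreated KO H3K9ac and 1.03% for untreated WT H3K9ac. A longer peak leaves more room for an overlap, so these shares and those of the broad peaks are not like for like. Each share rests on 1 Sirt6 library and 1 acetylation library. The broad peaks of Pou5f1, Sox2 and Klf4 had no acetylation call in any of the 8 lists.

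Outside the loci the next acetylation peaks were far away. Of the 32 pairs of a gene and a list, 31 had their nearest peak beyond 20 kb, at 102.79 kb or more. At Klf4 all 8 lists had the same nearest region, about 334 kb upstream, with folds of 23.2 (untreated KO H3K56ac) to 36.9 (untreated WT H3K9ac). These calls were made without a control, and whether a signal shared by all 8 lists reflects acetylation was not tested. At Nanog 5 lists shared a region about 201.0 kb downstream, namely all 4 lists after RA and untreated KO H3K56ac, while the untreated WT lists had theirs at 284.7 kb (H3K9ac) and 284.6 kb (H3K56ac). At Pou5f1 5 lists shared a region about 720.4 kb downstream, and the untreated KO lists had nearer peaks, at 162.6 kb for H3K56ac (fold 5.90) and 350.5 kb for H3K9ac (fold 6.85). The nearest peak of H3K56ac in WT after RA was farther, at 1197.2 kb (fold 26.9). At Sox2 the nearest peak was that of untreated WT H3K56ac, 102.8 kb upstream (fold 8.66), and the other 7 lists had theirs 849.5 to 3178.4 kb upstream. These distances place the nearest calls well outside the genes and their close flanks, and say nothing of which gene they belong to.

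**Figure D5:**
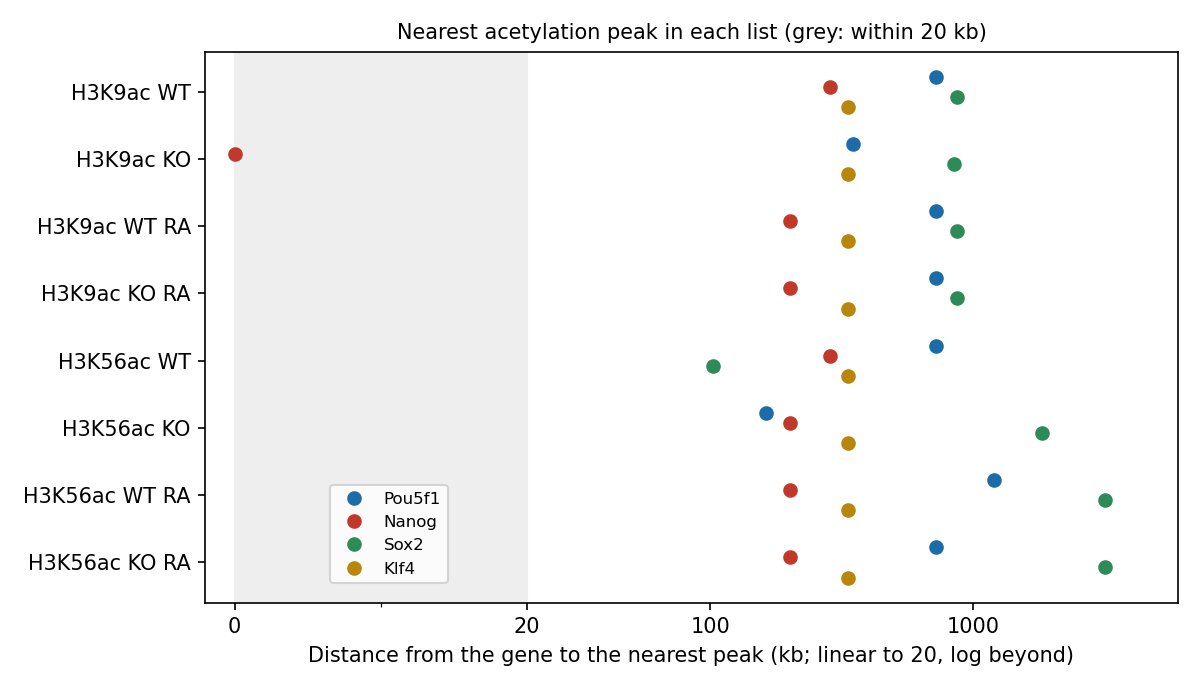
Distance from each gene to the nearest peak (x axis, kb, linear to 20 and log beyond) in each of the 8 acetylation lists (y axis), 1 point per gene. The untreated KO H3K9ac peak of Nanog is the only point in the grey zone within 20 kb, and the Klf4 points line up at about 334 kb in every list.

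No window of the CMS-IP table fell in the 4 loci. The table lists only windows of 500 bp that passed a p limit of the authors (the highest p listed was 0.000998), 2218 higher and 1562 lower in KO, so a locus without a window has no listed value. Over the genome 2.74% of 45 kb tiles held a window higher in KO and 1.78% a window lower in KO, so 0 of 4 loci is again near the background.

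The nearest window to any of the genes lay 301 bp beyond the flank of Nanog, 20.3 kb downstream, at chr6:122685001-122685500. It held 26 reads in the KO IP library and 8 in the WT IP library, or 4.56 and 1.19 RPKM (reads scaled by window length and library depth). The input libraries held 13 reads in KO and 7 in WT (1.09 and 0.842 RPKM), so the input was higher in KO as well, by less. The authors' deposited table gave this window a log2 fold change of 1.93 by edgeR, with a p of 0.000514 and an adjusted p of 1.0.

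Pou5f1 had windows on both sides of the comparison, 32.2 and 44.7 kb downstream. The nearer, at chr17:35680001-35680500, was higher in KO, with 23 reads against 7 in the IP (4.03 and 1.04 RPKM), and a log2 fold change of 1.95 in the authors' deposited table. Its input held 22 reads in KO and 17 in WT, which scaled to depth was lower in KO (1.84 and 2.05 RPKM). The farther, at chr17:35692501-35693000, was lower in KO, with 19 reads against 64 in the IP (3.33 and 9.52 RPKM), and a log2 fold change of -1.50 in the authors' deposited table. Its input held 16 reads in KO and 14 in WT, which scaled to depth was lower in KO as well (1.34 and 1.68 RPKM). Their p in the authors' deposited table was 0.000886 and 4.94e-05 by edgeR, with an adjusted p of 1.0 for both. Each p sets 1 library against 1 other and holds no spread between cultures. The nearest windows to Klf4 and Sox2 lay 125.6 kb upstream and 242.1 kb downstream.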

How the data were processed

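The submitters' processing notes name BWA 0.5.9, MACS2 2.0.10 and build mm9. MACS2 called each library by itself, with 0.01 as its q limit, with whole-cell extract as control for Sirt6 and no control for acetylation, per the file headers. The deposited lists give, as the authors' values, the pileup signal at each summit in whole fragments, −log10 p and −log10 q, and the fold enrichment ratio. For CMS-IP the authors deposited read counts and RPKM per window, with edgeR's log2 fold change and p-value. Libraries held 5782181 to 10250030 acetylation tags after filtering, per the file headers. Intervals overlapping a gene with 20 kb on each side by 1 bp were listed. The local background was computed from pileup and fold. Tiles of 45 kb ran to the last deposited interval of 20 chromosomes. The member genes, tile length and motifs were chosen with earlier results of these data known. The named genes were the 4 members and the nearest interval of each list. Other pluripotency genes were not analysed here, for want of mm9 positions. Promoters, gene order and strand came from RefSeq (GRCm38.p6), and all 4 genes matched by symbol. Alternatives were flanks of 10 and 50 kb, a −log10 q of at least 10 and an adjusted p under 0.1. Steps were tested on simulated data. There were 0 unused columns of per-sample values. The tools were matplotlib 3.10.9, scipy 1.17.1, pandas 2.3.3, numpy 2.4.6 and Python 3.11.15.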

Additional observations from a re-analysis of the deposited data

How the results depend on the processing

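Of 30 comparisons with an alternative setting, 27 kept their count within 1.5 times and 3 did not. Where the main count was 0, a flank of 10 kb or a stricter limit could only return 0. Those outcomes were fixed in advance and say nothing of stability. With a −log10 q of at least 10, the WT Sirt6 peaks in the loci fell from 19 to 5, and the untreated KO H3K9ac peaks from 1 to 0. With a flank of 50 kb in place of 20 kb, the 5-hydroxymethylcytosine windows rose from 0 to 3, and the WT Sirt6 peaks came to 24. The other 7 acetylation lists had 0 peaks in the loci with each flank tried (10, 20 and 50 kb) and with the stricter q limit. Of these alternatives, only the flank of 50 kb could have changed their count. No paired analysis was possible because each group held 1 library. The WT Sirt6 library had 2008232 tags, so summits of 6 to 20 fragments limit the order and edges of its peaks.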

Other observations

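Beyond the flank of Nanog, WT Sirt6 had a second cluster, downstream, on the side of Slc2a3, the next gene in the RefSeq order and a glucose transporter gene. It held peaks 25.7, 26.0 and 26.6 kb from Nanog, and the last of these, at chr6:122691296-122692567, was broad as well (1272 bp, 13 fragments, fold 10.6). A further peak lay at 49.8 kb (346 bp, fold 5.66). Pou5f1 had 1 WT Sirt6 peak in the same range, 44.2 kb downstream at chr17:35691961-35692216 (6 fragments, fold 5.66). It ended 285 bp before the window that was lower in KO. None of these 5 peaks overlapped a peak of the 8 acetylation lists. Which gene these peaks belong to was not tested.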
